A study of Arabidopsis thaliana with 8 samples.

Results

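Leaves of the Arabidopsis thaliana mutant abh1 were set against wild type Columbia leaves after both had been sprayed with abscisic acid (ABA). The comparison rests on 4 of the study's 8 arrays, which were chosen by their titles: abh1 with ABA, replicates 1 and 2, and wild type with ABA, replicates 1 and 2. The arrays were paired by replicate number. Plants were 4 weeks old, the spray was water with 50 µM ABA, and green tissue was taken 4 hours later. The other 4 arrays hold abh1 leaves and wild type leaves that had been mock-sprayed, again 2 arrays a genotype, and they serve here only to show whether a genotype difference was also there without the hormone. Each array carried RNA pooled from 3 biological replicates, so the spread between single plants is averaged away before hybridization. The labels name the mutant only as abh1, with no allele, and do not say whether arrays with the same number share plants or a day, so p-values measure the spread between these pools.

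ABA is the plant hormone that closes stomata, halts growth and switches on protective proteins when water is short. ABH1 is the larger protein of the complex that binds caps in the nucleus. This complex sits on the capped end of new messenger RNAs and takes part in splicing and in the processing of microRNA precursors. Plants that lack it are known for heightened responses to ABA in seeds and guard cells. No probe set was listed with the ABH1 gene, and its own level was not analysed here, so the mutant label is not checked by it.

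Signals are Affymetrix MAS5 values, in arbitrary units, scaled by the authors so that each array has the same trimmed mean. After control probe sets were left out, 22746 probe sets remained, and 13648 with a mean signal of at least 115.5 over the 8 arrays were tested. Of these, 7405 are listed with 1 gene, 271 with several and 5972 with none in the table used. Differences are abh1 minus wild type on the scale of log2(signal + 10), which understates the change of dim genes, and are given with the standard error of a limma fit of all 8 arrays with replicate number as a block. The median signal over all non-control probe sets lay between 130.6 and 206.1 on the 4 ABA arrays. RCA, the activase of the carbon-fixing enzyme Rubisco and a leaf marker, read 15459 and 18820 in abh1 ABA leaves and 13882 and 19472 in wild type ABA leaves. PRK makes the acceptor of carbon dioxide in the Calvin cycle and is the other of the 2 leaf markers that matched a probe set. PRK read 8776 and 11917 in abh1 ABA leaves and 6992 and 13840 in wild type ABA leaves. Both were bright on all 4 arrays and overlapped between genotypes. Of the 3 root markers that matched a probe set only EXPA18, an expansin of root hairs, passed the signal filter. EXPA18 read 109 and 116 in abh1 ABA leaves and 137 and 138 in wild type ABA leaves. The root gene PYK10 did not exceed 82.5 on any array, the root marker EXPA7 not 117.7, the stomatal lineage gene SPCH not 23.6, and the anther gene AMS not 64.0. The flower marker TUA1 did pass the filter, and its values are given under the other observations, so not all flower markers were silent.

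The 2 wild type ABA arrays were unlike each other. Across the tested probe sets their log2 signals correlated at r = 0.859, the lowest value between any 2 arrays of 1 group, while the pair of abh1 ABA arrays correlated at r = 0.952. Wild type ABA replicate 1 had the lowest values of all, with r = 0.815 against abh1 mock replicate 2 and r = 0.840 against wild type mock replicate 2. Wild type ABA replicate 2 correlated at r = 0.895 to 0.958 with every array other than its partner. Values within each pair are therefore given below where the pairs part ways.

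Under limma with Benjamini-Hochberg adjustment, 0 of the 13648 probe sets were higher in abh1 ABA leaves and 1 was lower, which is 0.0% and 0.00733% of those tested. At an unadjusted p under 0.05 there were 728 probe sets, 390 higher and 338 lower, or 5.33% of the total, where 682 are expected by chance. Leaving out wild type ABA replicate 2, which leaves that group with 1 array whose spread is taken from the other groups, gave 138 higher and 34 lower. Without wild type ABA replicate 1 there were 2 higher and 20 lower, and without abh1 ABA replicate 2 there were none in either direction. With 2 arrays against 2 an exact permutation test of a single probe set cannot go below p = 0.33, so the calls come from the fit across all probe sets.

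The 1 probe set past the threshold was 254551_at, for which no gene is listed in the table used. It read 921 and 498 in abh1 ABA leaves, against 7934 and 6257 in wild type ABA leaves. The 2 genotypes were far apart on every array. The difference was -3.36 ± 0.22 on the log2 scale, a 10.3-fold lower signal in abh1 (SE, n = 2 arrays a group, adjusted p = 0.00585, limma). It was -3.09 within pair 1 and -3.62 within pair 2. In mock-sprayed leaves the same probe set read 590 and 523 in abh1 and 7795 and 6619 in wild type, a difference of -3.67 ± 0.22, so the signal was low in abh1 with and without ABA. The call was lost without abh1 ABA replicate 2 (adjusted p = 0.0702) and without the block (adjusted p = 0.117).

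No other probe set passed, and the values that follow describe the arrays without a call. Both abh1 ABA arrays lay above both wild type ABA arrays for 1466 probe sets (10.7%) and below them for 939 (6.88%), together 17.6%. With 2 arrays against 2, a share of 0.33 would not overlap in either direction by chance if the arrays were interchangeable. The share found was below that, so these counts alone do not show differences between the genotypes. At least 2-fold in the same direction within both pairs, 24 probe sets were higher (0.176%) and 44 lower (0.322%). Genes are named below by a fixed rule: the 15 with the smallest p in each direction among those listed with 1 gene, with arrays that do not overlap and a mean difference of at least 0.5 on the log2 scale. Their adjusted p-values ran from 0.113 to 0.432 on the lower side and from 0.113 to 0.603 on the higher side.

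Among the 15 genes with lower signals in abh1 ABA leaves, several belong to known families of enzymes and transporters. AT5G43450 and AT5G43440, neighbouring genes for oxygenases of the 2-oxoglutarate type, were both on the list. AT5G43450 read 251 and 163 in abh1 ABA leaves and 960 and 688 in wild type ABA leaves, a difference of -1.95 ± 0.27 (adjusted p = 0.139). AT5G43440 read 351 and 342 in abh1 ABA leaves and 743 and 893 in wild type ABA leaves, a difference of -1.21 ± 0.22 (adjusted p = 0.263). The arrays of the 2 genotypes did not overlap for either gene, in ABA leaves or in mock leaves. AT2G03750, of the sulfotransferase family, read 459 and 863 in abh1 ABA leaves against 1720 and 2028 in wild type ABA leaves. AT1G68600, of the family of aluminium-activated malate transporters, read 687 and 550 in abh1 ABA leaves against 1515 and 2250 in wild type ABA leaves. AT5G62360, of the family of invertase and pectin methylesterase inhibitors, read 246 and 213 in abh1 ABA leaves against 1105 and 693 in wild type ABA leaves. Each of these 3 was lower by 2-fold or more within both pairs. AT4G23670, of the major latex protein family, was the brightest gene on the list, with 4062 and 5857 in abh1 ABA leaves and 7769 and 10162 in wild type ABA leaves, and differed less, by -0.86 ± 0.16.

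IAA29, a repressor of auxin-responsive transcription, was the only one of the 15 that carries a symbol in the annotation used. It read 71.3 and 186 in abh1 ABA leaves against 200 and 638 in wild type ABA leaves, a difference of -1.55 ± 0.31 (adjusted p = 0.362, limma). Replicate 2 was the higher array in both genotypes, and the lower wild type array was only just above the higher abh1 array, so the difference of 2-fold or more appears within the pairs. AT1G64360 had the smallest p of the 15, with 647 and 294 in abh1 ABA leaves against 2404 and 1161 in wild type ABA leaves, and nearly the same difference within pair 1 (-1.88) and pair 2 (-1.94). AT3G44430 read 98.0 and 26.3 in abh1 ABA leaves against 460 and 263 in wild type ABA leaves, a difference of -2.52 ± 0.35. AT1G43590, annotated as a pseudogene, had the largest difference of the 15, -2.60 ± 0.46, with 122 and 64.5 in abh1 ABA leaves and 772 and 452 in wild type ABA leaves. AT2G38790, AT5G35480 and AT3G01920 were lower by -1.69, -2.12 and -1.09 on the log2 scale. The unlisted probe set 258322_at was next after 254551_at, at -2.64 ± 0.27 (adjusted p = 0.0677).

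For 2 genes on the lower list the difference between treatments had an unadjusted p under 0.05. AT4G01390 read 117 and 45.6 in abh1 ABA leaves against 361 and 474 in wild type ABA leaves, a difference of -2.34 ± 0.37, while in mock leaves the difference was -0.72. AT2G22200, a transcription factor of the AP2/ERF family, read 44.5 and 24.9 in abh1 ABA leaves against 130 and 188 in wild type ABA leaves, a difference of -1.93 ± 0.37. In mock leaves AT2G22200 read 155 and 223 in abh1 and 175 and 245 in wild type, and the genotypes overlapped. Both genes were thus lower in ABA-sprayed than in mock-sprayed abh1 leaves within each replicate number. For AT2G22200 the ABA-minus-mock change was -1.59 and -2.74 in abh1 and -0.40 and -0.37 in wild type. For AT4G01390 it was -1.35 and -2.31 in abh1 and -0.79 and 0.37 in wild type. The test of the difference between treatments gave unadjusted p = 0.00993 for AT2G22200 and 0.0146 for AT4G01390, and an adjusted p of 1.0 for both (limma).

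On the higher side, AT3G48640 stood first. It read 1768 and 449 in abh1 ABA leaves against 165 and 90.7 in wild type ABA leaves, a difference of 2.77 ± 0.35 (adjusted p = 0.113, limma). The abh1 arrays differed from each other by more than the wild type arrays did, yet the lower abh1 array was still above both wild type arrays. In mock leaves the difference was larger, 3.80 ± 0.35, and passed the test there (adjusted p = 0.0182). AT1G13880, which the annotation also calls ELM2, read 1059 and 969 in abh1 ABA leaves against 331 and 377 in wild type ABA leaves, a difference of 1.49 ± 0.21, and likewise passed in mock leaves (adjusted p = 0.0299).

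2 glutaredoxin genes, whose products use glutathione to reduce disulfides, were among the 15. AT3G62960 read 473 and 321 in abh1 ABA leaves against 146 and 30.9 in wild type ABA leaves, a difference of 2.32 ± 0.37. AT4G15700 read 387 and 233 in abh1 ABA leaves against 197 and 61.3 in wild type ABA leaves, a difference of 1.36 ± 0.30. For both, wild type ABA replicate 2 was the lowest of the 4 arrays, and the difference was larger within pair 2. AT2G43590, of the chitinase family, read 354 and 278 in abh1 ABA leaves against 179 and 134 in wild type ABA leaves. AT3G22060, of the cysteine-rich secreted proteins, read 650 and 616 in abh1 ABA leaves against 292 and 206 in wild type ABA leaves. These genes were between 1.96-fold and 5.00-fold higher in abh1.

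EXO (EXORDIUM), a secreted protein tied to brassinosteroid-driven leaf growth, read 932 and 732 in abh1 ABA leaves against 349 and 467 in wild type ABA leaves, a difference of 1.01 ± 0.25 (adjusted p = 0.603, limma). In mock leaves it read 357 and 288 in abh1 and 210 and 212 in wild type. EXO was thus the one gene of the 30 whose ABA-minus-mock change was above 0.5 on the log2 scale within both replicate numbers of both genotypes, at 1.36 and 1.31 in abh1 and at no less than 0.71 in wild type. AT3G14750 read 308 and 463 in abh1 ABA leaves against 136 and 180 in wild type ABA leaves. AT3G10020 read 1791 and 2084 in abh1 ABA leaves against 697 and 1218 in wild type ABA leaves. The remaining 6 higher genes, AT2G35750, AT3G45160, AT3G45210, AT4G29020, AT1G72060 and AT1G67800, differed by 0.85 to 1.23. Unlisted probe sets 263593_at (1.82 ± 0.22) and 266385_at (1.71 ± 0.22) had adjusted p = 0.113 and 0.114.

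**Figure D1:**
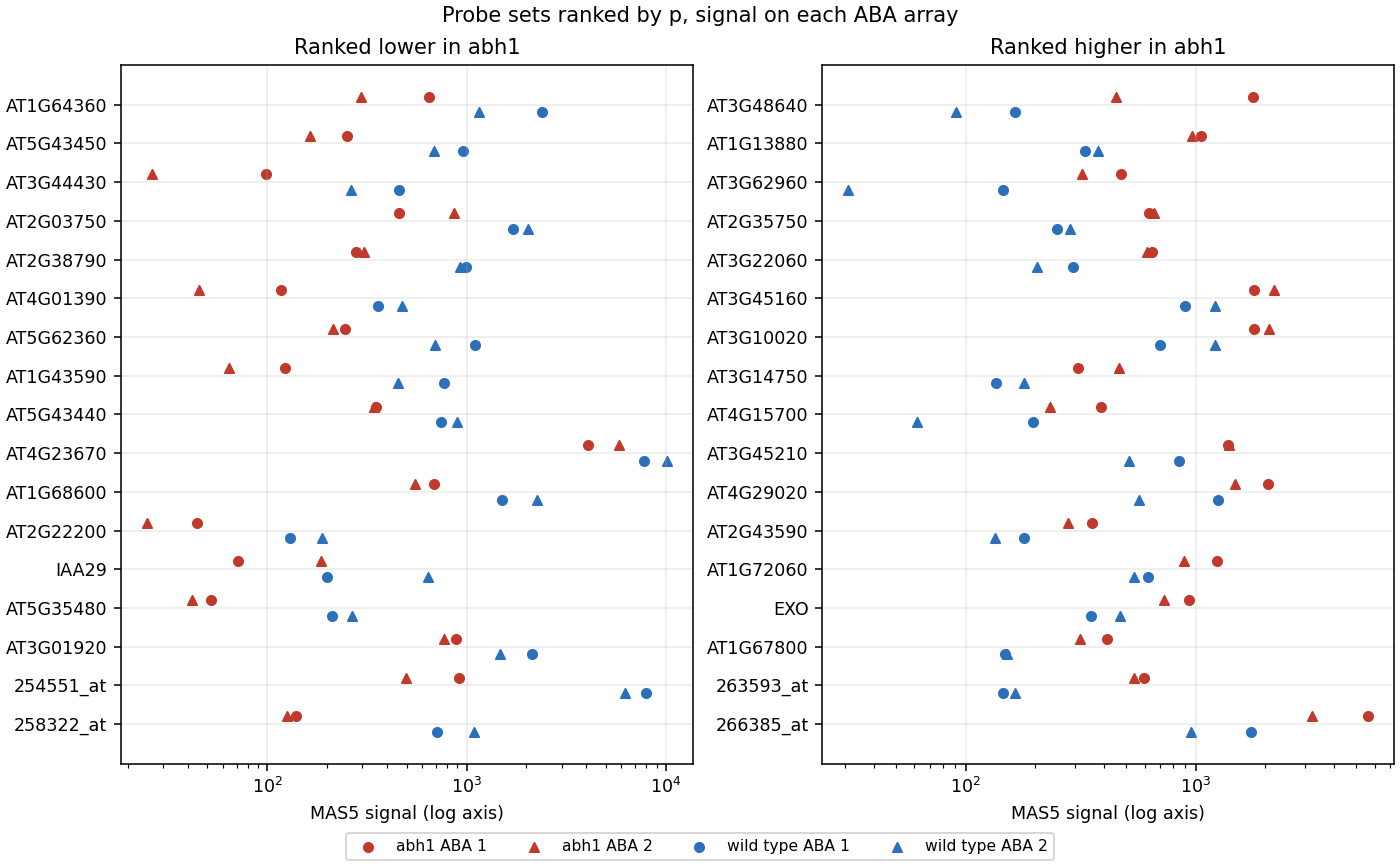
MAS5 signal (horizontal log axis, arbitrary units) of the 15 genes and 2 unlisted probe sets with the smallest p in each direction, on the 2 abh1 ABA arrays (red) and the 2 wild type ABA arrays (blue); circles are replicate 1 and triangles replicate 2. Red and blue do not overlap in any row because the choice required it; 254551_at, the only probe set past the threshold, sits at 921 and 498 in abh1 and at 7934 and 6257 in wild type.

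Mock-sprayed leaves gave a second reading of the genotype on 4 arrays that took no part in the ranked differences, though they share in the estimate of the spread. All 15 lower genes were also below 0 there, and 13 of them had mock arrays that did not overlap. All 15 higher genes were also above 0 in mock leaves, and 13 did not overlap. Over all tested probe sets, 51.9% were above 0 and 48.1% below 0 in mock leaves, 13.7% had abh1 mock arrays above both wild type mock arrays, and 14.3% had them below. In the wider sets, of the 24 probe sets that were 2-fold higher within both ABA pairs, 23 were above 0 and 17 did not overlap in mock leaves, and of the 44 lower ones, 41 were below 0 and 37 did not overlap.

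Read in the other direction, the 16 probe sets that passed the limma test in mock leaves (11 higher, 0.0806%, and 5 lower, 0.0366%) all had the same sign on the ABA arrays, where 55.7% of the tested probe sets were above 0 and 44.3% below. For 7 of the 11 higher ones the ABA arrays of the 2 genotypes did not overlap, where 10.7% of all tested probe sets lay on that side. For the lower ones it was 5 of 5, against 6.88%. The ABA arrays share in the estimate of the spread behind the mock test, so a small spread there favours both the call and the lack of overlap. Differences were smaller with ABA: the median of the 11 was 1.27 in ABA leaves and 2.32 in mock leaves, and that of the 5 was -1.60 in ABA leaves and -2.28 in mock leaves; the sets were chosen on the mock values. The test of whether the genotype difference itself changed with ABA called 0 probe sets (limma, smallest adjusted p = 1.0), with 249 at an unadjusted p under 0.05, or 1.82% of those tested. That is fewer than the 682 expected by chance, so the 0 calls do not show that the difference was the same in both treatments.

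**Figure D2:**
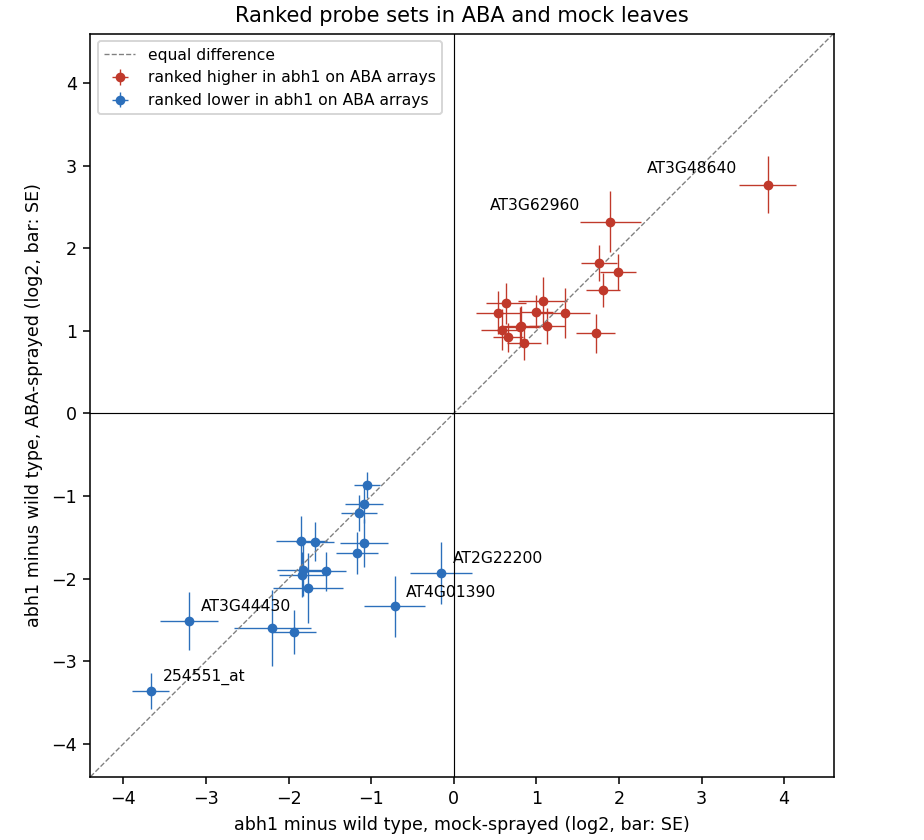
Difference of abh1 minus wild type in mock-sprayed leaves (horizontal, log2) and in ABA-sprayed leaves (vertical, log2) for the same 34 probe sets, with standard errors as bars and the line of equal difference dashed. Points lie to the lower left and the upper right; AT2G22200 (-1.93 in ABA, -0.15 in mock) and AT4G01390 (-2.34 in ABA, -0.72 in mock) sit farthest below the line.

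Across the genome the 2 ABA pairs differed in opposite ways. Across the 13648 probe sets, the difference within pair 1 and that within pair 2 correlated at r = -0.21, whereas the 2 mock pairs correlated at r = 0.50 (probe sets share arrays and are not independent replicates). Within pair 1, 757 probe sets were 2-fold or more higher in abh1 and 200 lower. Within pair 2 the balance was turned round, with 199 higher and 948 lower. For 184 probe sets (1.35%) the signal was 2-fold or more higher within pair 1 and 2-fold or more lower within pair 2, against 3 (0.022%) with the reverse pattern and 1 of each kind in mock leaves.

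The 184 are more than the 24 and 44 that agreed. Over the 78 of them listed with 1 gene, the median signal was 153 and 132 in abh1 ABA leaves and 46.9 and 361 in wild type ABA leaves. In mock leaves it was 200 and 403 in abh1 and 176 and 304 in wild type. The choice of the set fixes the order within each ABA pair. It favours low values on the lower array of each pair and high values on the higher one. The place against the mock arrays is thus partly set by the choice as well, and it is given as description only. Both replicate 1 ABA arrays lay below both mock arrays of that number, wild type ABA by more. Among the replicate 2 arrays abh1 ABA lay below both mock arrays, while wild type ABA lay between them. SIZ1, a SUMO ligase that acts in stress and ABA signalling and was picked after its values were seen, shows the pattern: it read 141 and 152 in abh1 ABA leaves and 18.3 and 395 in wild type ABA leaves, with differences of 2.41 within pair 1 and -1.32 within pair 2. Its mock arrays read 46.0 and 422 in abh1 and 140 and 305 in wild type. GI (GIGANTEA), which links the circadian clock to flowering, read 296 and 423 in abh1 ABA leaves and 136 and 1264 in wild type ABA leaves, with differences of 1.07 and -1.56. Its mock arrays read 359 and 1121 in abh1 and 432 and 1100 in wild type. Averaging the pairs leaves GI at -0.25 ± 0.52, a value that describes neither pair.

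**Figure D3:**
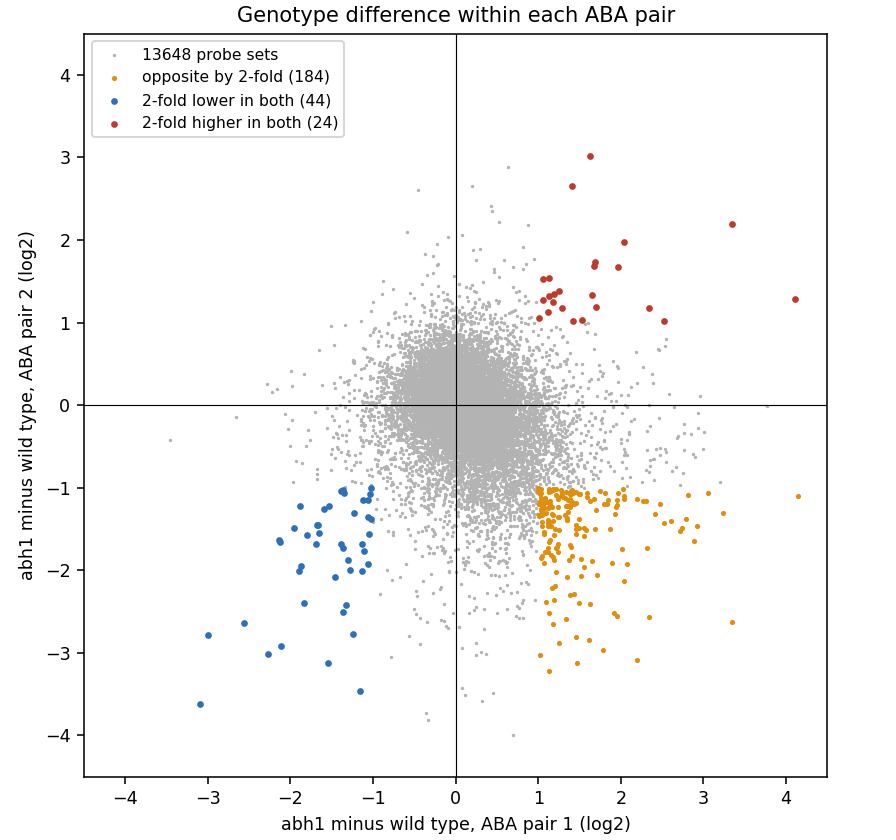
Difference of abh1 minus wild type within ABA pair 1 (horizontal, log2) and within ABA pair 2 (vertical, log2) for each of the 13648 tested probe sets. Red marks the 24 probe sets 2-fold or more higher in both pairs, blue the 44 lower in both, and orange the 184 that were higher in pair 1 and lower in pair 2, in the lower right corner; only 3 probe sets lie past 2-fold in the upper left corner.

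Gene length differed in this set. The 78 listed genes have a median genomic length of 4416 bp, against 2293 bp for the 7379 tested genes with a length in the RefSeq table (assembly TAIR10.1). Genes were split into 5 classes by length, with 1474 to 1477 genes in each. The median difference within pair 1 went up with length, through -0.11, -0.03, 0.05, 0.16 and 0.36 on the log2 scale. Within pair 2 it went down, through 0.22, 0.12, 0.04, -0.07 and -0.40. The mock pairs stayed between -0.05 and 0.10 in every class. Of the 184 pattern's listed genes, 57 lie in the longest class and 2 in the shortest.

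The same measure was taken on single arrays. In abh1 ABA leaves the median log2 signal of the longest class minus that of the shortest was -1.14 on replicate 1 and -0.78 on replicate 2. In wild type ABA leaves the same differences were -1.62 and -0.07. In mock leaves they were -0.78 and 0.01 in abh1 and -0.79 and -0.09 in wild type, so that there the genotypes lay close within each replicate number. Against the other arrays of its number, wild type ABA replicate 1 was the lowest, and abh1 ABA replicate 2 was far below the other 3 replicate 2 arrays. The ratio of the 3' to the 5' GAPDH control probe sets was 1.32 and 1.28 in abh1 ABA leaves and 1.73 and 1.57 in wild type ABA leaves. The same ratio for ubiquitin was 2.01 and 2.94 in abh1 ABA leaves and 2.05 and 2.57 in wild type ABA leaves, and for actin 2.82 and 2.27 in abh1 ABA leaves and 2.93 and 2.97 in wild type ABA leaves, so the controls did not order the arrays alike. The part of RNA quality in the pattern was not tested. For the genes named above, the median length was 1476 bp for the 15 lower ones and 1293 bp for the 15 higher ones, below the 2293 bp of all. The naming rule required arrays that do not overlap. That held for 327 of 1476 genes in the shortest class and 131 of 1475 in the longest, so the rule itself favours short genes. The shares set beside the gene lists below take no account of length.

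**Figure D4:**
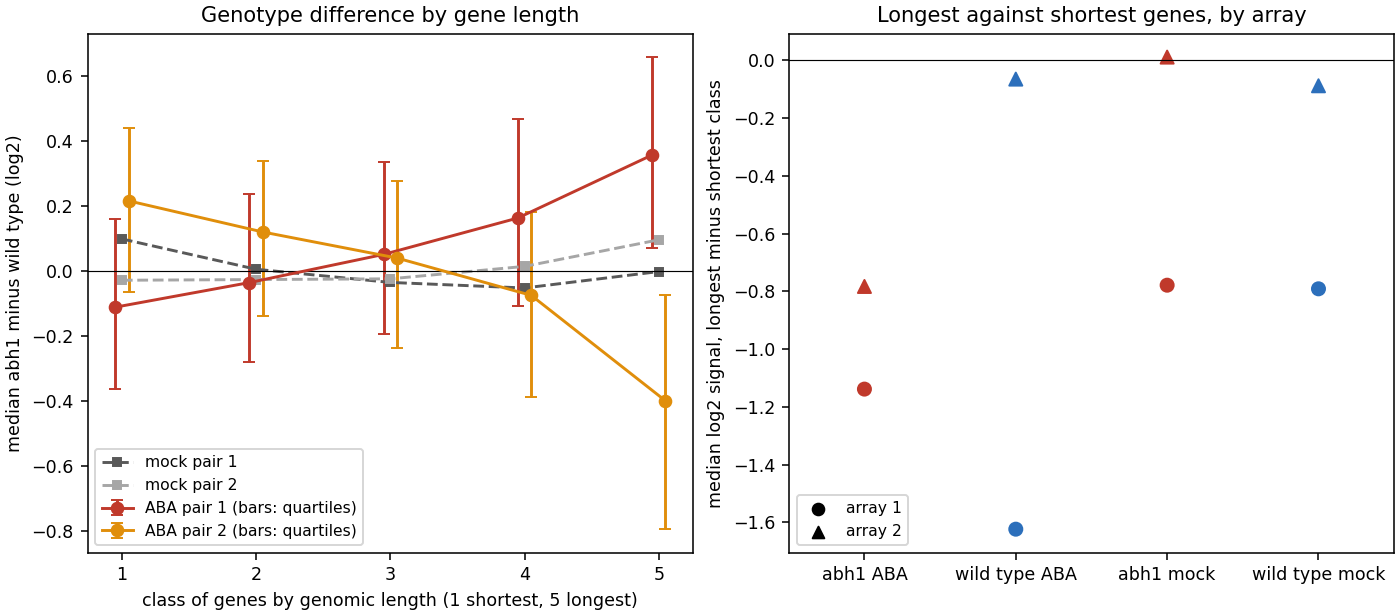
Left, median difference of abh1 minus wild type (log2) by class of gene length, for the ABA pairs (solid, bars from the lower to the upper quartile over genes) and the mock pairs (dashed); pair 1 climbs to 0.36 and pair 2 drops to -0.40 in the longest class. Right, median log2 signal of the longest minus the shortest class on each array; the abh1 ABA arrays sit at -1.14 and -0.78 and the wild type ABA arrays at -1.62 and -0.07, and abh1 ABA array 2 is below the other 3 arrays numbered 2.

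Gene lists for ABA-related and leaf functions were described in the same way, and no member of any list was past the threshold. List entries were names, locus codes or patterns, and many found no probe set (for the dehydration protectants, 16 of 62 entries matched). Over all tested probe sets the median difference was 0.04, with 0.10 within pair 1 and -0.02 within pair 2. Of all tested probe sets, 10.7% were apart on the higher side and 6.88% on the lower, and 55.7% were above 0 and 44.3% below. Of the 9 dehydration protectants that passed the filter, proteins that stabilise membranes and enzymes in drying or freezing cells, 1 was apart on the higher side and 1 on the lower, and the list's median was -0.36 within pair 1 and 0.20 within pair 2. COR15B, a cold-regulated protectant of chloroplast membranes, read 4422 and 2778 in abh1 ABA leaves against 10670 and 4793 in wild type ABA leaves, a difference of -1.03 ± 0.22 (adjusted p = 0.469, limma), and it was also lower in mock leaves, by -1.48. COR47, a dehydrin, differed by -0.26 and AT2G44060, of the late embryogenesis abundant family, by 0.32. AT3G02480 read 1245 and 449 in abh1 ABA leaves against 7927 and 498 in wild type ABA leaves, so that its difference of -1.40 ± 1.01 rests on wild type ABA replicate 1, the one array that was high.

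In the auxin list 1 gene rested on a single array. The 4 members above the filter, of 12 on the array, were all below 0, and 2 had arrays that did not overlap. Over all tested probe sets 44.3% were below 0 and 17.6% did not overlap, and 4 members are too few to set against these shares. GH3.3, which conjugates auxin to amino acids, read 43.8 and 31.6 in abh1 ABA leaves against 59.3 and 540 in wild type ABA leaves. Only wild type ABA replicate 2 was high, and without that array the mean signal of GH3.3 would lie below the filter. Its place in the list thus comes from the array that makes the difference. The difference was -0.36 within pair 1 and -3.72 within pair 2. WES1, of the same enzyme family, differed by -0.35 ± 0.29 and IAA18 by -0.10 ± 0.23, with opposite signs within the pairs. IAA29, given above, was the one member lower by 2-fold in both pairs.

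Ubiquitin ligases mark proteins for degradation, and some of them act as brakes on ABA and drought responses. Of the 11 that passed the filter, 3 were apart on the lower side and 1 on the higher, where 6.88% and 10.7% of all tested probe sets lay. PUB19, a U-box ligase known to restrain ABA responses, read 1381 and 1383 in abh1 ABA leaves against 5592 and 1952 in wild type ABA leaves, a difference of -1.25 ± 0.39 (adjusted p = 0.805, limma), with -2.01 within pair 1 and -0.49 within pair 2. The abh1 arrays were equal and both wild type arrays were higher, one of them much more so. Without wild type ABA replicate 2 the difference of PUB19 was -1.94 (adjusted p = 0.0244, limma), and without replicate 1 it was -0.56 (adjusted p = 0.365), so the size turns on which wild type array is kept. PUB25 differed by -0.72 ± 0.26. LUL1, a RING-type ligase, read 625 and 682 in abh1 ABA leaves against 465 and 499 in wild type ABA leaves, a difference of 0.43 ± 0.20, while in mock leaves it was lower in abh1, by -0.79.

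Calcium sensors went both ways. CML41, a calmodulin-like protein, read 1532 and 1093 in abh1 ABA leaves against 869 and 283 in wild type ABA leaves, a difference of 1.36 ± 0.36 (adjusted p = 0.655, limma). CML38, another calmodulin-like protein, read 150 and 345 in abh1 ABA leaves against 496 and 963 in wild type ABA leaves, a difference of -1.56 ± 0.65 that was similar within both pairs. CML42 differed by 0.36. Of the 10 members of the list above the filter, 6 were above 0 and 4 below, with a median of 0.20. Those signs were held by 55.7% and 44.3% of all tested probe sets.

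Of the 11 cell wall loosening genes, EXLA1, an expansin-like protein, read 895 and 660 in abh1 ABA leaves against 2352 and 1363 in wild type ABA leaves, a difference of -1.21 ± 0.37, and was lower in mock leaves too, by -1.71. EXPA4, an expansin that loosens growing walls, differed the other way, by 0.50 ± 0.24. The list as a whole had 2 members apart in each direction and a median of 0.22. Of all tested probe sets, 10.7% were apart on the higher side and 6.88% on the lower.

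Among the 26 UDP-glycosyltransferases, which attach sugars to hormones and metabolites, 17 were below 0, 3 were apart on the lower side and 1 on the higher. The shares over all tested probe sets were 44.3% below 0, 6.88% apart on the lower side and 10.7% on the higher. The median of the list was -0.22, made up of -0.06 within pair 1 and -0.39 within pair 2. UGT85A5 read 345 and 370 in abh1 ABA leaves against 535 and 645 in wild type ABA leaves, a difference of -0.70 ± 0.21. UGT88A1 read 2811 and 2359 in abh1 ABA leaves against 3557 and 4758 in wild type ABA leaves, a difference of -0.67 ± 0.23, and in mock leaves it differed by 0.09. Of 10 cytochrome P450 genes, oxidising enzymes of specialised metabolism, CYP71B24 read 72.8 and 78.3 in abh1 ABA leaves against 169 and 291 in wild type ABA leaves, a difference of -1.44 ± 0.32. CYP71B26 differed by -0.45 ± 0.21, and CYP71B6 the other way, by 0.37 ± 0.23. These 3 were the members whose arrays did not overlap, and 4 of the 10 were above 0, against 17.6% and 55.7% of all tested probe sets.

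Since the cap-binding complex acts in splicing and microRNA processing, genes of those processes and microRNA targets were listed as well. LSM3B, a subunit of the Sm-like ring that takes part in splicing and decay, was the 1 member of 10 in its list that was apart, a share near that of all tested probe sets (10.7% on the higher side, 17.6% in either direction). It read 664 and 991 in abh1 ABA leaves against 529 and 428 in wild type ABA leaves, a difference of 0.76 ± 0.29. CCS, which loads copper into superoxide dismutase and whose messenger is a microRNA target, read 774 and 574 in abh1 ABA leaves against 463 and 369 in wild type ABA leaves, a difference of 0.68 ± 0.24, with 0.72 in mock leaves. The 3 other targets above the filter overlapped between genotypes. No member of the microRNA processing list, of 3 above the filter, had arrays that did not overlap. Few entries of these lists matched a probe set: 4 of 22 for microRNA processing, 5 of 42 for microRNA targets and 7 of 38 for cap, splicing and decay. An entry can be an alternative name, a locus code or a pattern, so these are not gene counts. The lists thus leave most of those entries unread and are no survey of the processes.

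The flowering (5 members), redox (11) and nuclear photosystem (8) lists each had 1 member apart, on the higher side, where 10.7% of all probe sets lay. The other 4 flowering genes were below 0, as were 44.3% of all tested probe sets, but none was lower within both pairs. The median of the flowering list was 0.69 within pair 1 and -0.38 within pair 2. Its genes have a median length of 5016 bp, against 2293 bp for all. AGL24, a MADS-box promoter of flowering, read 145 and 118 in abh1 ABA leaves against 86.0 and 61.7 in wild type ABA leaves, a difference of 0.77 ± 0.29, near the signal filter. MSRB9, which restores oxidised methionine in proteins, read 697 and 469 in abh1 ABA leaves against 312 and 304 in wild type ABA leaves, a difference of 0.87 ± 0.30, with 2.13 in mock leaves. LHCB4.3, a light-harvesting antenna protein, read 3735 and 3070 in abh1 ABA leaves against 2619 and 2221 in wild type ABA leaves, a difference of 0.49 ± 0.18. TRY, a repressor of trichome fate, was the only trichome marker that matched a probe set. TRY read 269 and 388 in abh1 ABA leaves against 205 and 225 in wild type ABA leaves, a difference of 0.57 ± 0.23. Adjusted p-values of these 4 lay between 0.828 and 0.919 (limma).

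Several lists had medians of opposite sign within the pairs. The medians of the sugar transporter and autophagy lists were below 0 within pair 1 and above 0 within pair 2, as for the dehydration protectants. The order was reversed for the cytochrome P450 list (0.17 and -0.38) and the calcium list (0.29 and -0.23). The median of 10 sugar transporters was -0.55 within pair 1 and 0.68 within pair 2, and that of 10 autophagy genes -0.17 and 0.30. SWEET11, which exports sucrose from leaf cells, read 9145 and 6385 in abh1 ABA leaves against 7611 and 4025 in wild type ABA leaves, higher within both pairs. SAG29, a senescence-associated sugar transporter of the SWEET family, read 1251 and 1042 in abh1 ABA leaves against 2472 and 542 in wild type ABA leaves, a difference of -0.98 within pair 1 and 0.93 within pair 2. SFP2 differed by -0.62 ± 0.26 and was lower within both pairs.

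**Figure D5:**
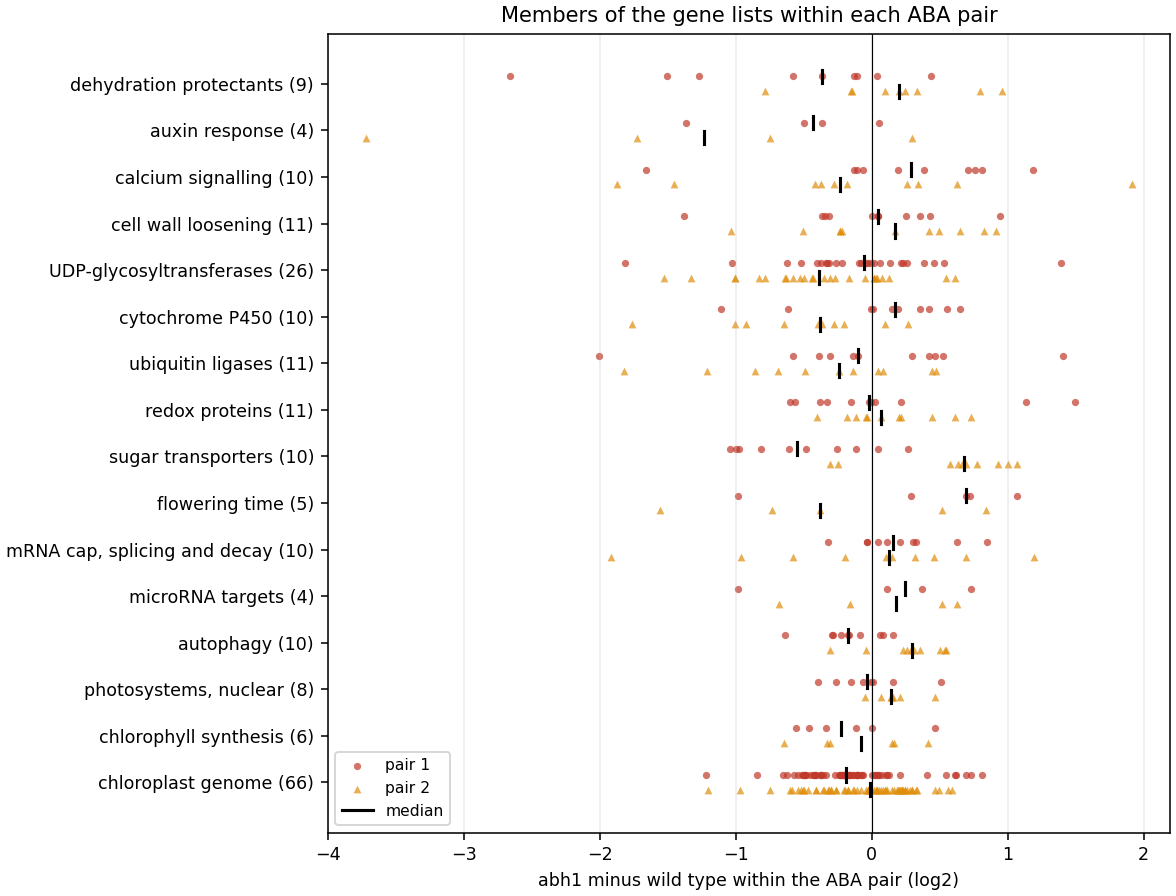
Difference of abh1 minus wild type (horizontal, log2) of each member above the signal filter within ABA pair 1 (red circles) and pair 2 (orange triangles) for 16 gene lists, with the number of members in brackets and black ticks at the medians. The pair medians lie on opposite sides of 0 for the dehydration protectants (-0.36 and 0.20) and the sugar transporters (-0.55 and 0.68), and both lie near 0 for the chloroplast genome.

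Genes of the chloroplast genome, which encode parts of the photosystems, ATP synthase and ribosome of the plastid, had a median difference near 0 in ABA leaves. Of 66 above the filter, 47 were below 0, 1 was apart on the lower side and none on the higher. Over all tested probe sets the shares were 44.3%, 6.88% and 10.7%. The median difference of the 66 was -0.08, with -0.19 within pair 1 and -0.01 within pair 2. Their median signal was 1272 and 4050 in abh1 ABA leaves and 1676 and 4467 in wild type ABA leaves; the spread between replicate numbers was far wider than that between genotypes. In mock leaves their median signal was 766 and 3548 in abh1 and 2041 and 4946 in wild type. There 61 of 66 were below 0, against 48.1% of all tested probe sets, and the median difference was -0.74. For 59 of the 66 the difference was higher in ABA than in mock leaves, a count for which the share over all tested probe sets was not taken. At an unadjusted p under 0.05 there were 13 of the 66, against 1.82% of all tested probe sets. The smallest adjusted p was 1.0 (limma), so no member was shown to differ between the treatments. atpA, the alpha subunit of ATP synthase, had the smallest p in ABA leaves, with 1276 and 2002 in abh1 ABA leaves against 1708 and 4624 in wild type ABA leaves, a difference of -0.81 ± 0.29 (adjusted p = 0.845).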

How the data were processed

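Affymetrix arrays were hybridized with RNA of leaves, and the deposited intensities are MAS5 signals, per the submitters' processing notes; the authors scaled every array to a trimmed mean of about 500, as the values show. Signals were used as log2(signal + 10). Probe sets with a mean at or above the 40th percentile over 8 arrays were kept (13648 of 22746). limma 3.58.1 in R 4.3.3 fitted 4 group means with replicate number as a block and an intensity trend, and p-values were adjusted by Benjamini-Hochberg at 0.05. The pairing by number was asked for in the choice of members; deviations of same-numbered arrays correlated at 0.39 to 0.71 over 6 pairs of groups, and at 0.39 for the 2 ABA groups. In the lists the brightest probe set stands for its gene. Genes were named from the platform table and RefSeq (TAIR10.1); family names of genes known by locus code are background knowledge. Named genes were the 15 with smallest p in each direction among those with arrays that do not overlap and a difference of at least 0.5, in each list the 4 with smallest p, and 2 unlisted probe sets a direction. The members and lists were chosen with earlier results of these data known. The fit was tested on simulated data with known changes between the 2 ABA groups. It recovered 14 of 100 changes of 1 on the log2 scale and 69 of 100 changes of 2, with 5 false calls. A small count of calls therefore does not show that differences are absent. The simulated errors were drawn independently for each probe set and array, without the shared shifts by gene length seen in the ABA pairs. The rates of recovery and of false calls need not hold for the real arrays. Array number limits precision. Alternatives were the offset, filter, scaling, trend, block and left-out arrays.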

Additional observations from a re-analysis of the deposited data

Results flagged for a closer look

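4 named genes had abh1 arrays on opposite sides of the wild type arrays in ABA leaves and in mock leaves. Each was tested for a difference between the treatments with limma, and each had an adjusted p of 1.0 there. GH3.3 was lower in abh1 ABA leaves and higher in abh1 mock leaves, with an ABA difference minus mock difference of -3.33 (log2, unadjusted p = 0.0134). Its place above the signal filter rests on wild type ABA replicate 2 alone. LUL1 was higher in abh1 with ABA and lower without it, by 1.22 between the treatments (unadjusted p = 0.00263). AGL24 showed the same order, by 1.13 (unadjusted p = 0.0258). WRKY6, a stress-related transcription factor, read 131 and 111 in abh1 ABA leaves against 190 and 150 in wild type ABA leaves, was higher in abh1 in mock leaves, and differed by -1.20 between the treatments (unadjusted p = 0.0154).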

How the results depend on the processing

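The count of probe sets higher in abh1 ABA leaves, 0 as reported, became 2 with median centring, 1 with quantile normalization and 1 with only the 4 ABA arrays, and ran from 0 to 138 when 1 array was left out. The count lower, 1 as reported, became 0 with no replicate block, 6 with median centring and 3 with only the 4 ABA arrays, and ran from 0 to 34 with 1 array left out. The test between treatments called 0 under every setting run. Without a filter on low signals, 2564 probe sets were apart on the higher side and 2151 on the lower, and with the 60th percentile 601 on the lower. The 24 that were 2-fold higher in both pairs became 13 with an offset of 50, 141 without a filter and 13 with the 60th percentile; the 44 lower became 172 and 29 under those 2 filters. The 184 opposite ones became 72 with an offset of 50, 340 without a filter, 82 with the 60th percentile, 76 with median centring and 112 with quantile normalization; the 3 of the reverse kind became 0, 112, 17 and 8 with an offset of 50, no filter, median centring and quantile normalization. For 80 named probe sets, 689 of 703 values under other settings and 606 of 640 with 1 array left out kept the direction and the side of the threshold. The sign turned with quantile normalization for SIZ1 (-0.048) and SAG29 (0.084). With 1 array left out it turned for AT3G02480 (range -3.12 to 0.31), GI (-1.23 to 0.74), IAA18 (-0.39 to 0.19), PRK (-0.27 to 0.38), RCA (-0.12 to 0.23), SAG29 (-1.42 to 1.38), SIZ1 (-0.50 to 0.64), TUA1 (-0.093 to 0.41) and WES1 (-0.72 to 0.022). With no replicate block the call of 254551_at was lost (adjusted p = 0.117, range over its settings 0.000956 to 0.117). The cause of these changes was not tested.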

Other observations

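Tested probe sets of genes that carry a symbol were looked through after their values were seen. Of 1065, 31 (2.91%) were higher and 31 (2.91%) lower in abh1 ABA leaves with arrays that did not overlap and a difference of at least 0.5 on the log2 scale, against 3.16% and 2.60% of all tested probe sets, and none passed the limma test. They include IAA29, EXO, COR15B and others given above. GIS, a regulator of trichome formation, read 437 and 529 in abh1 ABA leaves against 305 and 258 in wild type ABA leaves, a difference of 0.76 ± 0.24, while its mock difference was -0.24. AGL42, a MADS-box gene, read 251 and 242 in abh1 ABA leaves against 141 and 116 in wild type ABA leaves. THI2.2, a thionin of the defence peptides, read 2737 and 4395 in abh1 ABA leaves against 2008 and 856 in wild type ABA leaves. RHF1A, a RING-finger ligase, read 831 and 585 in abh1 ABA leaves against 323 and 401 in wild type ABA leaves. DRT100 read 1344 and 1517 in abh1 ABA leaves against 906 and 1042 in wild type ABA leaves, and its mock difference was 0.01.

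LPA19, which helps to assemble photosystem II, read 342 and 461 in abh1 ABA leaves against 1023 and 559 in wild type ABA leaves, a difference of -0.91 ± 0.30, with -1.49 in mock leaves. CRR41, needed for the chloroplast NDH complex, read 441 and 431 in abh1 ABA leaves against 710 and 642 in wild type ABA leaves, a difference of -0.62 ± 0.20, with -0.80 in mock leaves. MAP1B, a methionine aminopeptidase, read 185 and 178 in abh1 ABA leaves against 319 and 405 in wild type ABA leaves. DFR, an enzyme of anthocyanin synthesis, read 168 and 1082 in abh1 ABA leaves against 64.2 and 567 in wild type ABA leaves; it overlapped between genotypes but was higher in abh1 within both pairs, by 1.26 and 0.92. TUA1, a pollen tubulin and the 1 flower marker above the filter, read 582 and 476 in abh1 ABA leaves against 450 and 493 in wild type ABA leaves.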
